A study of Bos taurus with 18 samples.

Results

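The genes described here encode the major fibrillar collagens and the enzymes and chaperone that modify, fold and crosslink them. They are 10 named genes, COL1A1, COL1A2, COL3A1, COL5A1, COL5A2, LOX, LOXL2, PLOD2, SERPINH1 and P4HA1, chosen by gene name from the 24596 genes of the count table. All 10 were found and all 10 were among the 13099 genes tested. RNA sequencing was done on 18 libraries from 2 bovine fibroblast lines, a Simmental-like line and a Holstein-like line, each at 3 stages of long culture with 3 libraries per stage. The Simmental-like groups were the primary culture PBF-13, the senescent stage Sn-BF-13 and the spontaneously immortalized line HUN-BF-13. The Holstein-like groups were the primary culture PBF-15, the senescent stage Sn-BF-15 and the immortalized line HUN-BF-15. No transgene or drug is named in the labels for any group, and animal age and body site are not given there. In the table, Simmental-like primary libraries are headed BDF-20-3B-4, senescent ones BDF-20-MultiXray-Ctrl, and immortalized ones BF-13, so stage and culture of origin cannot be told apart. Holstein-like primary libraries are headed BEF, senescent ones BF-15-P9 and immortalized ones BF-15-P23, so the same holds for them. All Holstein-like headings end in Rerun and no Simmental-like heading does, so line and this mark cannot be told apart. The headings do not say what Rerun stands for. The immortalized stage is 1 cell line per breed type. The labels call the libraries of a stage biological replicates without naming separate animals or cultures, so the p-values rest on the spread among these libraries, some or all of which could be technical.

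Fibrillar collagens are made as procollagen chains that assemble into triple helices in the endoplasmic reticulum, are secreted and trimmed, and then pack into fibrils. COL1A1 and COL1A2 encode the chains of type I collagen, the main fibril protein of skin and bone, COL3A1 encodes the single chain of type III collagen, and COL5A1 and COL5A2 encode chains of type V collagen, which helps to start fibrils and limits their width. P4HA1 encodes a catalytic subunit of prolyl 4-hydroxylase, needed for a stable helix, SERPINH1 encodes the collagen chaperone HSP47, PLOD2 encodes the lysyl hydroxylase that acts on the ends of the chains, and LOX and LOXL2 encode secreted oxidases that turn lysines into crosslinks. Cultured fibroblasts are a classic source of these proteins.

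Depth was 18.2 to 23.2 M counts (M for 1e+06) per Simmental-like library, 10.98 to 14.1 M per Holstein-like senescent or immortalized library and 1.42 to 1.47 M per Holstein-like primary library. A count of 0 allows up to 3 counts, which is 2.11 counts per 1e+06 (CPM) at the lowest depth and 0.129 CPM at the highest. The Simmental-like libraries carried fibroblast markers, whose 10 genes summed to 25672 to 32886 CPM in primary, 17567 to 17981 CPM in senescent and 17105 to 17906 CPM in immortalized libraries. Endothelial markers summed to at most 13.4 CPM, blood and immune markers to at most 5.77 CPM and epithelial markers to at most 1.29 CPM in the 9 libraries. Smooth muscle and pericyte markers summed to 2193 to 3049 CPM in primary, 751 to 783 CPM in senescent and 397 to 404 CPM in immortalized libraries, and their part in the collagen results was not tested. Primary library 1 stood apart from the other primary libraries, and by total counts all 10 genes had their lowest primary CPM in it. The share of all genes that did so was not counted. On the TMM scale, described below, SERPINH1 was lower in primary library 2 (2165 CPM) than in library 1 (2536 CPM). Senescent libraries 1 and 2 were nearly as close as counting noise allows (a chi-square per gene of 1.36), whereas pairs of primary libraries gave 41.8 to 370.

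In levels by total counts, type I collagen was high in the immortalized Simmental-like libraries, and type III collagen was low there. COL1A1 stood at 13675, 22488 and 18982 CPM in primary libraries 1 to 3, at 15020.3, 15301 and 15062 CPM in senescent libraries and at 28537, 25588 and 24721 CPM in immortalized libraries. All 3 immortalized libraries lay above all 6 others, while the senescent libraries lay inside the primary range. COL1A2 stood at 4740.0, 12807 and 10290.2 CPM in primary, at 6454, 6613 and 6187 CPM in senescent and at 12641, 10745 and 9468 CPM in immortalized libraries. The immortalized libraries lay above the senescent ones and overlapped the primary ones. COL3A1 stood at 2282, 6792 and 5099 CPM in primary, at 3265, 3337 and 3082 CPM in senescent and at 1959, 1671 and 1456 CPM in immortalized libraries. Every immortalized library was below every other library, and the lowest primary library, library 1, was below the senescent ones. In bulk RNA, fewer cells of a type and less RNA per cell cannot be told apart.

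The chains of type V collagen went apart between stages. COL5A1 stood at 405, 1253 and 850.3 CPM in primary, at 1094, 1115 and 1069 CPM in senescent and at 1612, 1412 and 1308 CPM in immortalized libraries. Its immortalized libraries lay above all others, and the primary spread, 3.1 times between the highest and the lowest library, covered the senescent libraries. COL5A2 stood at 573, 1887 and 1402 CPM in primary, at 1161, 1188 and 1081 CPM in senescent and at 1254, 1122 and 1019.9 CPM in immortalized libraries. These 3 stages overlapped, and the mean levels of the senescent and immortalized libraries were 1144 ± 55.7 and 1132 ± 117 CPM (SD, n = 3 each).

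Of the crosslinking oxidases, both LOX and LOXL2 were highest in the immortalized libraries. LOX stood at 323, 717 and 576 CPM in primary, at 588, 596 and 536 CPM in senescent and at 1492, 1350.2 and 1285 CPM in immortalized libraries. LOXL2 stood at 574, 845 and 814 CPM in primary, at 565, 563 and 568 CPM in senescent and at 1136, 1148 and 1169 CPM in immortalized libraries. For both genes the immortalized libraries lay above all 6 others, and the 3 senescent LOXL2 values lay just below the lowest primary one. PLOD2 stood at 170.4, 321 and 283 CPM in primary, at 188, 181 and 174 CPM in senescent and at 207, 195 and 183 CPM in immortalized libraries. The senescent and immortalized PLOD2 levels overlapped and both lay above primary library 1 and below primary libraries 2 and 3.

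The chaperone and the prolyl hydroxylase were also highest in the immortalized stage. SERPINH1 stood at 1839, 1981 and 2345 CPM in primary, at 1835, 1814 and 1897 CPM in senescent and at 2938, 3203 and 3384 CPM in immortalized libraries. P4HA1 stood at 58.5, 167 and 146 CPM in primary, at 167, 172 and 164 CPM in senescent and at 220, 212 and 205 CPM in immortalized libraries. The immortalized libraries of both genes lay above all others, and primary and senescent libraries overlapped. Such separation was common, as immortalized libraries did not overlap senescent ones for 71.5% of all tested genes, nor primary ones for 58.4%. The share of all genes separated from both stages at once was not counted. By total counts the primary libraries spread by 2.85 times for P4HA1 and by 1.27 times for SERPINH1.

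**Figure D1:**
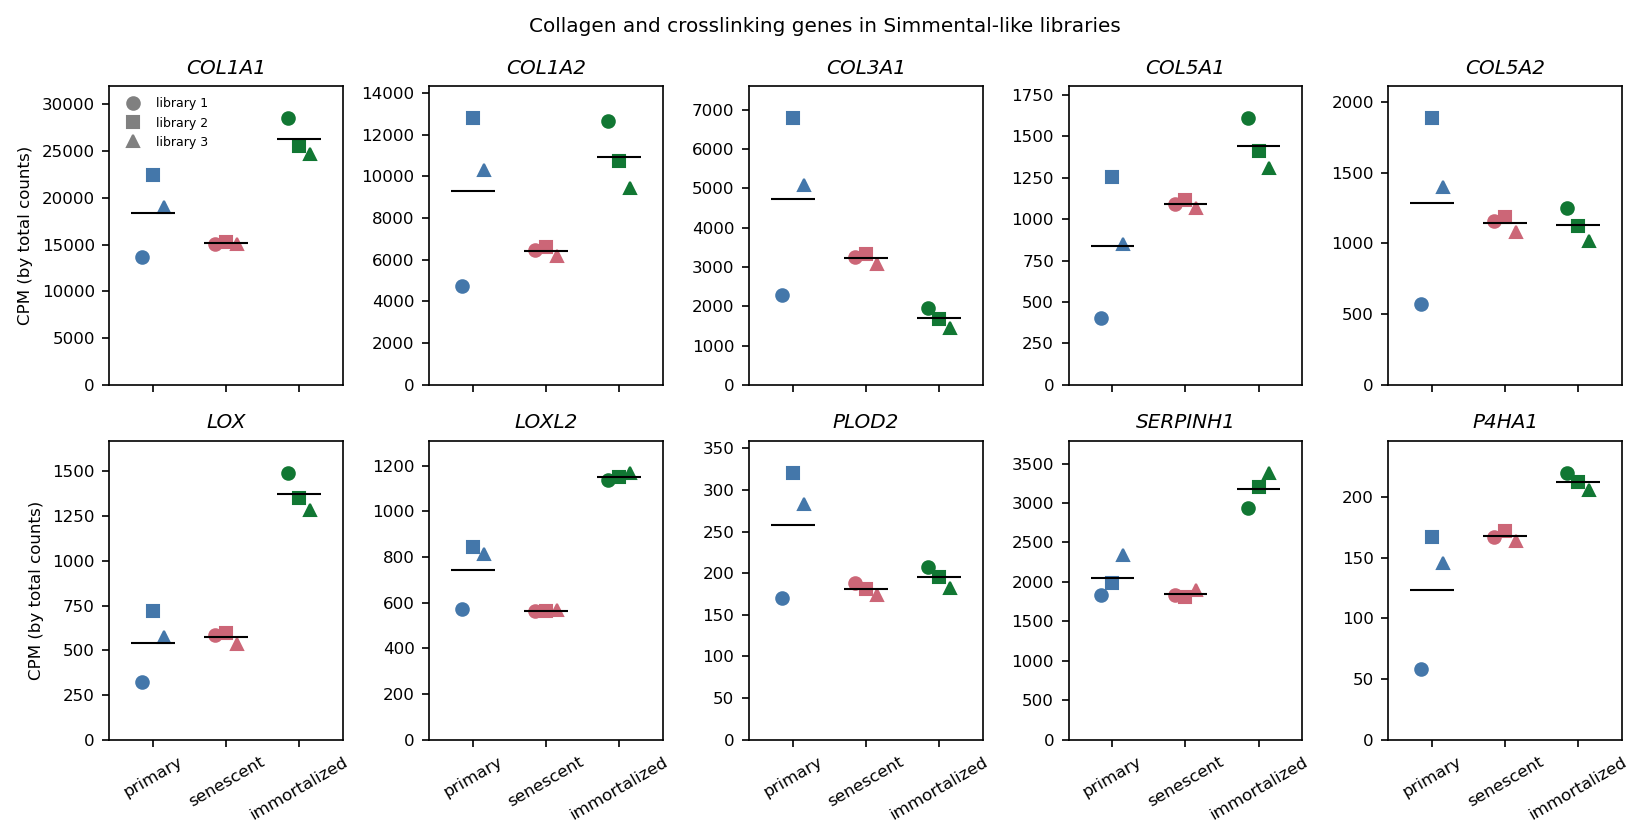
CPM by total counts of each of the 10 genes (vertical axes from 0) in the primary, senescent and immortalized Simmental-like libraries. Points are libraries, with a marker shape for library 1, 2 and 3, and bars are means of 3. COL3A1 is lowest in the immortalized libraries, and COL1A1, COL5A1, LOX, LOXL2, SERPINH1 and P4HA1 are highest there. The share of all genes separated in this way was not counted, and COL5A1 and P4HA1 were not called in either comparison with the immortalized stage.

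The first comparison asked how the senescent stage differed from the primary culture. On the TMM scale, which sets library sizes so that most genes do not change, 3 collagens and 3 of the 5 processing genes were lower in senescent libraries, and none was higher. These were COL1A1, COL1A2, COL3A1, LOXL2, PLOD2 and SERPINH1. Of all tested genes, 58.0% passed the same threshold (edgeR quasi-likelihood test, adjusted p under 0.05), 28.3% higher and 29.7% lower. Thus 6 of 10 is close to the share called in either direction, but all 6 were lower, against 29.7% of all genes. The 5 collagens had a median log2 change of -0.73 and the 5 processing genes of -0.62, beside 0.01 over all tested genes.

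By TMM-scaled CPM, COL1A1 ranged over 12987 to 13184 in senescent and 18856 to 24584 in primary libraries, and its log2 change was -0.73 ± 0.14 (SE, edgeR adjusted p = 0.00239). PLOD2 ranged over 151 to 163 TMM-scaled CPM in senescent and 235 to 350.5 in primary libraries and fell by 0.96 ± 0.15 on the log2 scale (edgeR adjusted p = 0.000816). LOXL2 ranged over 485 to 491 TMM-scaled CPM in senescent and 791 to 933 in primary libraries and fell by 0.85 ± 0.10 on the log2 scale (edgeR adjusted p = 0.000144). For all 6 called genes the TMM-scaled libraries of the stages did not overlap. The calls rest on the same values, so this adds no separate support. The share of all genes without overlap on that scale was not counted. SERPINH1 fell by 0.62 ± 0.12 (edgeR adjusted p = 0.00223), COL1A2 by 0.96 ± 0.26 (edgeR adjusted p = 0.0131) and COL3A1 by 0.97 ± 0.28 (edgeR adjusted p = 0.0167) on the log2 scale. COL3A1 lost its call in 5 of 20 alternatives, among them the fits without senescent library 1 (adjusted p = 0.0506) and without senescent library 3 (adjusted p = 0.0548), over a range of 5.22e-05 to 0.51.

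The 4 genes that were not called had log2 changes of -0.04 ± 0.27 for COL5A1, -0.59 ± 0.29 for COL5A2, -0.35 ± 0.19 for LOX and 0.01 ± 0.25 for P4HA1. Without primary library 1, COL5A2, LOX and P4HA1 passed the threshold too, with log2 changes of -0.90 (adjusted p = 0.000186), -0.55 (adjusted p = 0.00107) and -0.28 (adjusted p = 0.00509), and 9 of the 10 genes were called lower. Calls rose over all genes too, to 8990 in that fit (4466 higher and 4524 lower) from 7591 in the main fit.

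Most of these calls depended on the scaling. Scaling by total counts moved the median log2 change over all genes up by 0.46. On that scale 7795 of the 13099 tested genes were called, 5955 higher and 1840 lower. Among the 10 genes LOXL2 alone was called, with a log2 change of -0.40 (edgeR adjusted p = 0.0401). The other called genes had log2 changes of -0.28 for COL1A1, -0.53 for COL1A2, -0.55 for COL3A1, -0.51 for PLOD2 and -0.15 for SERPINH1 on that scale, with adjusted p from 0.0584 for PLOD2 to 0.29 for SERPINH1. LOX and COL5A1 had positive values there, 0.09 and 0.39. By CPM from total counts, senescent and primary libraries did not overlap for 1 of the 10 genes, LOXL2, against 69.2% of all tested genes. The TMM factors were 1.16 in each senescent library and 0.725, 0.915 and 0.873 in the primary ones, in which the 10 most abundant genes took 12.4% to 14.4% of the counts, against 8.03% to 8.12% in senescent libraries.

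The second comparison asked how the immortalized line differed from the senescent stage. Type I collagen, both oxidases and the chaperone rose: COL1A1, COL1A2, LOX, LOXL2 and SERPINH1 were higher in immortalized libraries, and no member was called lower. That is 5 of 10 genes, against 32.4% of all tested genes called, 16.4% of them higher and 16.1% lower. The median log2 change was 0.56 for the 5 collagens and 0.94 for the 5 processing genes, beside -0.00 over all tested genes. Scaling by total counts moved the median over all genes by -0.16 and left 4 of these calls. With that scaling 4203 of the 13099 tested genes were called, 1505 higher and 2698 lower.

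LOX, with 1376 ± 106 CPM in immortalized and 573 ± 32.5 CPM in senescent libraries (SD, n = 3 each), rose by 1.43 ± 0.19 on the log2 scale (edgeR adjusted p = 0.000766). LOXL2, with 1151 ± 16.6 CPM in immortalized and 565 ± 2.88 CPM in senescent libraries, rose by 1.19 ± 0.10 (edgeR adjusted p = 5.33e-05). These were the largest log2 changes of the 10 genes in this comparison, and in both the stages were far apart beside the spread of their libraries. COL1A1 averaged 26282 ± 2000.1 CPM in immortalized and 15128 ± 152 CPM in senescent libraries and rose by 0.96 ± 0.14 (edgeR adjusted p = 0.00105). SERPINH1 averaged 3175 ± 225 CPM in immortalized and 1849 ± 43.4 CPM in senescent libraries and rose by 0.94 ± 0.12 (edgeR adjusted p = 0.00047). The calls of LOX, LOXL2, COL1A1 and SERPINH1 held in 19 of 20 alternatives each, the exception being the fit over all 18 libraries of both lines, in which no member was called.

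COL1A2 averaged 10952 ± 1596 CPM in immortalized and 6418 ± 215 CPM in senescent libraries and rose by 0.93 ± 0.26 (edgeR adjusted p = 0.0241). Its direction was the same in all 20 alternatives, but 9 of them ended the call, over a range of adjusted p of 2.64e-05 to 0.829. Those were total-count scaling (0.0957), the replicate block (0.0527), senescent libraries 1 and 2 summed (0.0756), all 18 libraries, and leaving out any senescent library, immortalized library 1 or immortalized library 2 (0.0647 to 0.0817).

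COL3A1, the type III chain, was the only collagen of the 5 with a log2 change below 0 on the TMM scale (with total counts COL5A2 was below 0 too, at -0.015), at -0.77 ± 0.28, and it did not pass (edgeR adjusted p = 0.0653), although its 1695 ± 252 CPM in immortalized libraries and 3228 ± 131 CPM in senescent libraries did not overlap. It passed in 4 of 20 alternatives, with DESeq2 (0.0243), in the fit of the 6 libraries compared (8.45e-05), without primary library 1 (0.000726) and without primary library 2 (0.0251), over a range of 8.45e-05 to 0.832. The remaining genes were not called, with log2 changes of 0.56 ± 0.27 for COL5A1, 0.15 ± 0.29 for COL5A2, 0.27 ± 0.14 for PLOD2 and 0.50 ± 0.25 for P4HA1. Of the 20 alternatives, COL5A1 passed in 3, PLOD2 and P4HA1 in 2 each and COL5A2 in 0. The SEs come from the fit of all 9 libraries, which includes the widely spread primary ones. By CPM from total counts the stages did not overlap for 8 of the 10 genes, all but COL5A2 and PLOD2, against 71.5% of all tested genes.

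The third comparison set the immortalized line against the primary culture, with the same libraries as in the comparisons above. LOX, LOXL2 and SERPINH1 were higher in immortalized libraries, and COL3A1 and PLOD2 were lower. That is 5 of 10 genes against 50.4% of all tested genes, 24.9% higher and 25.5% lower, so the share called was that of all genes. Median log2 changes were -0.03 for the collagens and 0.33 for the processing genes, beside -0.00 over all tested genes. Scaling by total counts moved the median over all genes by 0.30, and with it 4580 of the 13099 tested genes were called higher and 2098 lower.

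COL3A1 averaged 1695 ± 252 CPM in immortalized and 4724 ± 2278 CPM in primary libraries (SD, n = 3 each) and fell by 1.74 ± 0.28 on the log2 scale (edgeR adjusted p = 0.00114). This was the largest of the 10 log2 changes in this comparison, and it was called in 19 of 20 alternatives, all but the fit over 18 libraries. LOX averaged 1376 ± 106 CPM in immortalized and 538 ± 199 CPM in primary libraries and rose by 1.08 ± 0.19 (edgeR adjusted p = 0.00177), again in 19 of 20 alternatives. PLOD2 averaged 195 ± 12.4 CPM in immortalized and 258 ± 78.2 CPM in primary libraries and fell by 0.69 ± 0.14 on the log2 scale (edgeR adjusted p = 0.00447). Its stages overlapped by CPM from total counts, and with that scaling the change was -0.40 and not called (adjusted p = 0.13, with a range of 1.07e-05 to 0.29 over the alternatives).

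LOXL2 averaged 1151 ± 16.6 CPM in immortalized and 744 ± 149 CPM in primary libraries, with a log2 change of 0.33 ± 0.10 (edgeR adjusted p = 0.0183). SERPINH1 averaged 3175 ± 225 CPM in immortalized and 2055 ± 261 CPM in primary libraries, with a log2 change of 0.32 ± 0.12 (edgeR adjusted p = 0.0483). Both small changes kept their direction in 20 of 20 alternatives, but the LOXL2 call ended in 5, among them the fit of the 6 libraries compared (0.0869) and leaving out any immortalized library (0.05 to 0.0667), with adjusted p from 4.68e-05 to 0.854. The SERPINH1 call ended in 13 of 20 alternatives, with adjusted p from 0.00248 to 0.849, among them RLE scaling (0.0546), the replicate block (0.0729), and leaving out primary library 2, any senescent or any immortalized library.

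COL1A1 and COL1A2 did not pass in the third comparison, with log2 changes of 0.23 ± 0.14 (edgeR adjusted p = 0.202) and -0.03 ± 0.26 (edgeR adjusted p = 0.941). With total-count scaling COL1A1 was called higher, at 0.52 (adjusted p = 0.0398, over a range of 0.0398 to 0.975), and COL1A2 had a positive value of 0.24. COL5A1 had a log2 change of 0.53 ± 0.27, COL5A2 of -0.44 ± 0.29 and P4HA1 of 0.52 ± 0.25, none of them called. By CPM from total counts the immortalized and primary libraries did not overlap for 7 of the 10 genes, all but COL1A2, COL5A2 and PLOD2, against 58.4% of all tested genes.

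**Figure D2:**
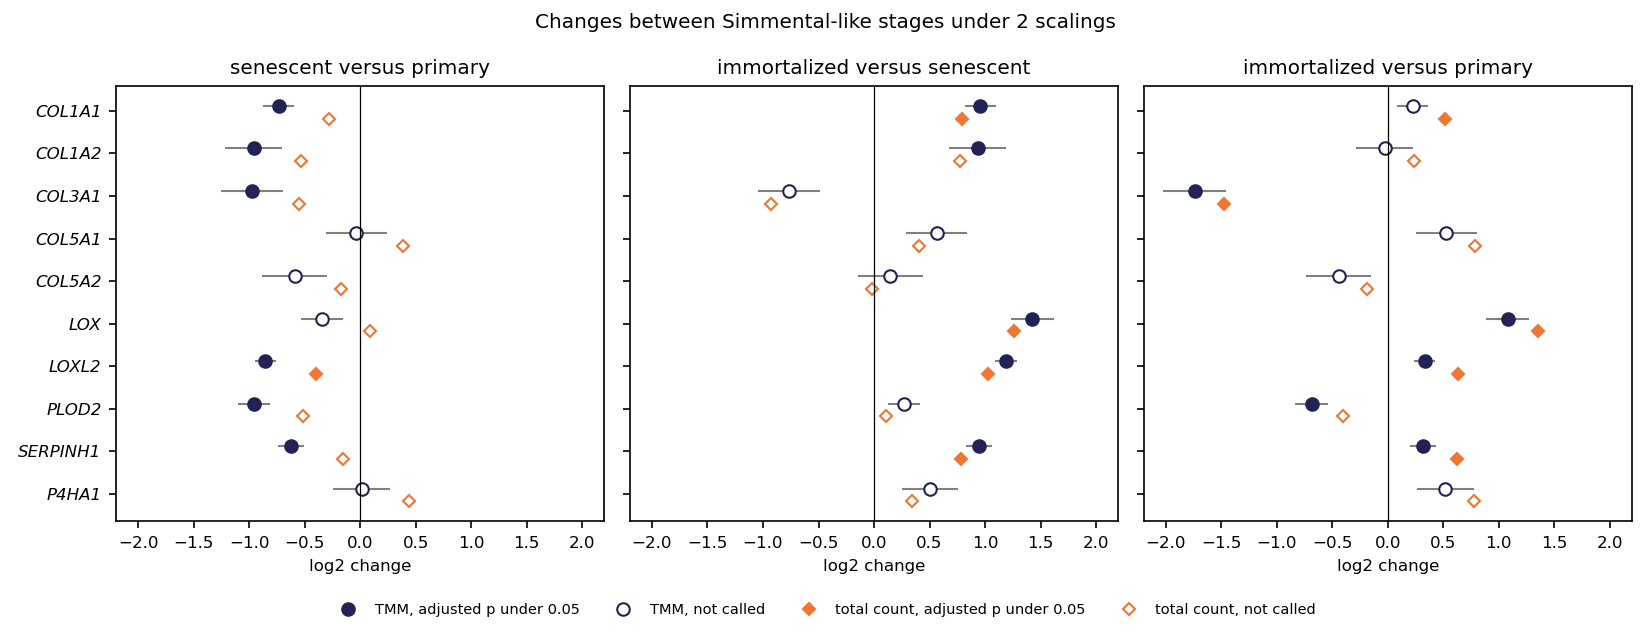
Log2 change of each of the 10 genes (horizontal axes) in the 3 comparisons of Simmental-like stages, with TMM scaling (circles, lines are ± 1 SE) and with total-count scaling (diamonds), filled where the adjusted p was under 0.05. The diamonds lie to the right of the circles for senescent against primary, where 6 genes were called with TMM scaling and 1 with total counts, and LOX, LOXL2, COL1A1 and SERPINH1 are filled on both scales for immortalized against senescent.

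The collagens' share of all counts depends on how library sizes are scaled, whereas ratios between genes of one library do not. Gene length cancels when the same ratio is compared between stages. The 5 collagens took 2.17%, 4.52% and 3.66% of all counts in primary libraries, 2.70%, 2.76% and 2.65% in senescent libraries and 4.60%, 4.05% and 3.80% in immortalized libraries. Immortalized libraries were 1.45 percentage points above senescent ones and did not overlap with them (exact permutation test, two-sided, p = 0.1). With 3 libraries against 3 the smallest p this test can give is 0.1, and over the 27 ratio comparisons the adjusted p of such a result is 0.169. The difference was -0.75 between senescent and primary libraries and 0.70 between immortalized and primary libraries, with overlap in both (exact p = 0.4 each). Primary libraries moved these values. Without primary library 1 they were -1.39 and 0.058, and without primary library 2 they were -0.21 and 1.24. With TMM-scaled library sizes the shares were 2.29% to 2.37% in senescent and 2.99% to 4.94% in primary libraries, without overlap and with a difference of -1.71, and the difference between immortalized and primary libraries was -0.032.

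COL3A1 held 10.5%, 15.02% and 13.9% of the 5 collagens' counts in primary libraries, 12.1%, 12.1% and 11.6% in senescent libraries and 4.26%, 4.12% and 3.83% in immortalized libraries. Immortalized libraries thus stood apart from both other stages, by -7.88 percentage points against senescent and -9.08 against primary libraries (exact p = 0.1 each), while senescent and primary libraries overlapped (-1.21, exact p = 0.4, and -2.52 without primary library 1 or -0.28 without primary library 2). Primary library 1, the lowest of the primary libraries, was still well above every immortalized library.

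The ratio of COL5A1 to COL5A2 counts was 0.706, 0.664 and 0.606 in primary, 0.942, 0.938 and 0.989 in senescent and 1.29, 1.26 and 1.28 in immortalized libraries. The 3 stages did not overlap in any pair, with log2 differences of 0.54 for senescent against primary, 0.42 for immortalized against senescent and 0.96 for immortalized against primary (exact p = 0.1 each). Primary library 1, in which both chains were low, had a ratio close to that of the other primary libraries. The ratio of COL1A1 to COL1A2 counts, the chains of one collagen, was 2.89, 1.76 and 1.84 in primary, 2.33, 2.31 and 2.43 in senescent and 2.26, 2.38 and 2.61 in immortalized libraries. All stages overlapped in this ratio, with log2 differences of 0.16, 0.03 and 0.20 in the same order of comparisons (exact p = 0.4, 0.8 and 0.4). Leaving out single libraries gave 0.031 to 0.39, -0.024 to 0.081 and 0.064 to 0.42, with the highest value of both comparisons against primary libraries without primary library 1, and the lowest without primary library 2.

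Per 100 counts of the 5 collagens, LOX had 1.49, 1.58 and 1.57 counts in primary, 2.18, 2.16 and 2.02 in senescent and 3.24, 3.33 and 3.38 in immortalized libraries. PLOD2 ran the other way, with 0.786, 0.709 and 0.774 in primary, 0.697, 0.656 and 0.658 in senescent and 0.451, 0.481 and 0.481 in immortalized libraries. Neither ratio overlapped between any pair of stages, and the log2 differences of immortalized against primary libraries were 1.10 for LOX and -0.68 for PLOD2 (exact p = 0.1 each). LOX starts crosslinks at lysines, and the hydroxylase PLOD2 sets which kind of crosslink can form. Relative to the collagen transcripts, these enzyme transcripts were shifted in opposite directions in the later stages. These ratios also move with the collagens, whose mean share of all counts was 3.45% in primary, 2.70% in senescent and 4.15% in immortalized libraries. PLOD2 itself averaged 181 CPM in senescent and 195 CPM in immortalized libraries. LOX averaged 538 CPM in primary and 573 CPM in senescent libraries. Neither change was called. Between immortalized and primary libraries LOX was called higher and PLOD2 lower on the TMM scale, as given above.

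P4HA1 had 0.270, 0.369 and 0.398 counts per 100 collagen counts in primary, 0.619, 0.624 and 0.618 in senescent and 0.478, 0.523 and 0.541 in immortalized libraries. The senescent libraries had the highest of these ratios, above both other stages without overlap (log2 difference of 0.86 against primary, and -0.27 for immortalized against senescent, exact p = 0.1 each). P4HA1 itself averaged 124, 168 and 212 CPM in primary, senescent and immortalized libraries. The collagens it is divided by took 3.45%, 2.70% and 4.15% of all counts on average in the same order. LOXL2 had 2.65, 1.87 and 2.22 per 100 in primary, 2.09, 2.04 and 2.15 in senescent and 2.47, 2.83 and 3.08 in immortalized libraries, and the immortalized and senescent libraries alone did not overlap (log2 difference 0.41, exact p = 0.1). SERPINH1 had 8.48, 4.38 and 6.40 per 100 in primary, 6.80, 6.58 and 7.16 in senescent and 6.39, 7.90 and 8.91 in immortalized libraries, and all 3 stages overlapped.

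**Figure D3:**
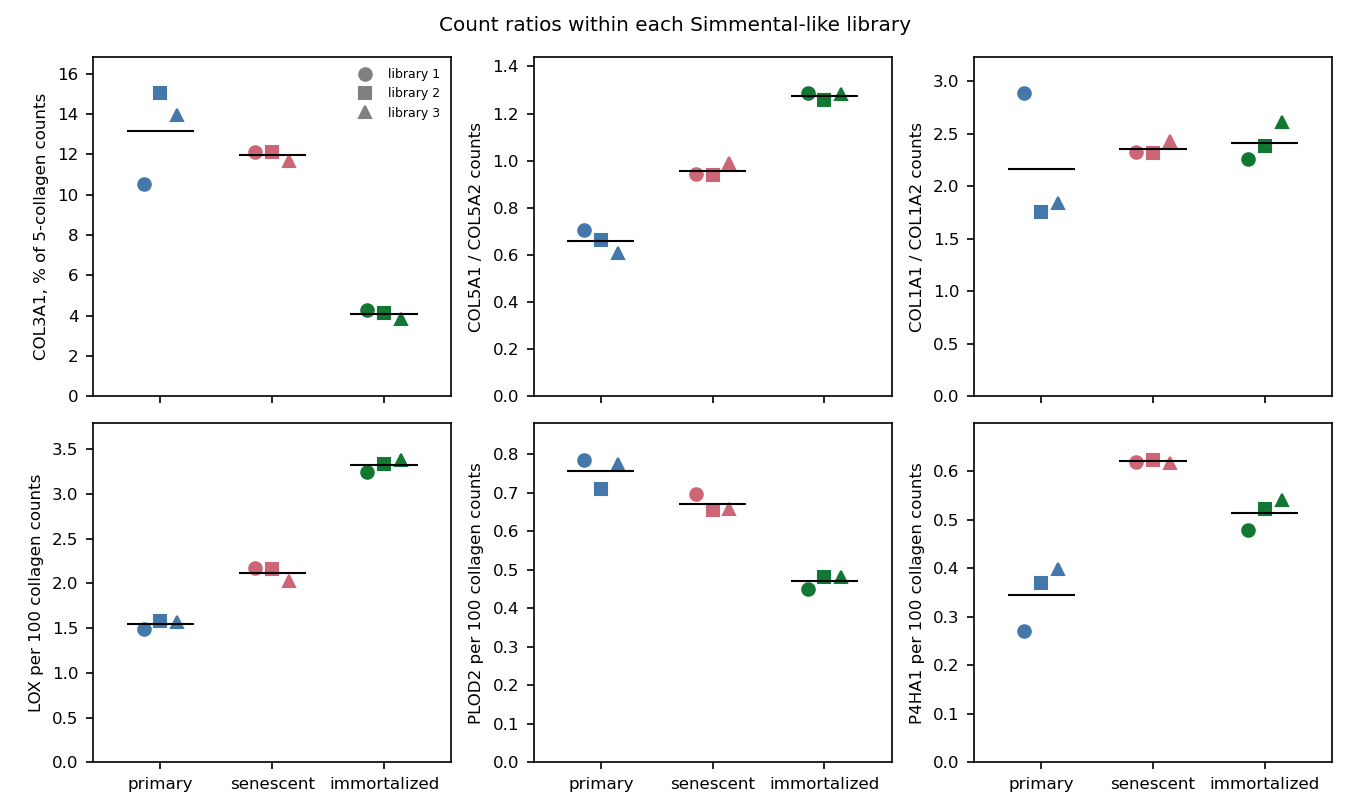
Ratios of counts within each Simmental-like library (vertical axes from 0), for COL3A1 as a percent of the 5 collagens, COL5A1 over COL5A2, COL1A1 over COL1A2, and LOX, PLOD2 and P4HA1 per 100 collagen counts. Points are libraries and bars are means of 3; COL5A1 over COL5A2 and LOX per 100 collagen counts are lowest in primary and highest in immortalized libraries, PLOD2 per 100 runs the other way, and COL1A1 over COL1A2 overlaps between stages.

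Across the 9 Simmental-like libraries, COL1A1 varied most like LOXL2 and LOX among the 10 genes (Pearson r of 0.97 and 0.92 on log2(CPM + 1)), COL5A1 most like P4HA1 (r of 0.98), and COL3A1 most like PLOD2 (r of 0.74). These are descriptions over 9 libraries that share 3 stages and a scale. COL3A1 had negative values with LOX (-0.50), LOXL2 (-0.43) and SERPINH1 (-0.65). Outside the 10 genes, the 5 most like COL1A1 were ALDH1L2 (0.988), GLDC (0.986), PLXND1 (0.982), CHST2 (0.979) and ALDH5A1 (0.978), and 96 of 8480 genes with at least 10 CPM on average had a value above 0.9. ALDH1L2, a mitochondrial enzyme of folate metabolism, stood at 86.1, 146 and 121 CPM in primary, 83.3, 85.0 and 86.2 CPM in senescent and 179.7, 171 and 157 CPM in immortalized libraries. GLDC encodes a subunit of the glycine cleavage system, and it had its highest values, 77.2 to 80.0 CPM, in the immortalized libraries too.

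Other genes of collagen synthesis, trimming and crosslinking moved in both directions. Of a list of 37 such genes, 36 were in the table and 34 were tested. In senescent against primary libraries, 11 were higher and 18 lower, with a median log2 change of -0.39, and with total-count scaling 13 and 9. Over all tested genes 28.3% were higher and 29.7% lower on the TMM scale. With total-count scaling 5955 of the 13099 tested genes were higher and 1840 lower. Levels of these genes are means ± SD over 3 libraries. Among the lower ones were SERPINF1, which encodes a collagen-binding serpin, at 19.0 ± 1.75 CPM in senescent and 123 ± 32.4 CPM in primary libraries (log2 change -3.21 ± 0.26, edgeR adjusted p = 3e-05), and PCOLCE, an enhancer of procollagen trimming, at 248 ± 12.6 CPM in senescent and 648 ± 177 CPM in primary libraries (-1.90 ± 0.25). The related PCOLCE2 was higher, at 281 ± 2.75 CPM in senescent and 30.6 ± 5.83 CPM in primary libraries (2.74 ± 0.10, edgeR adjusted p = 4.71e-07). ADAMTS3, a procollagen N-proteinase, stood at 18.8 ± 0.82 CPM in senescent and 1.23 ± 0.83 CPM in primary libraries (3.48 ± 0.33). LEPREL1, a prolyl 3-hydroxylase gene, stood at 78.3 ± 2.02 CPM in senescent and 11.4 ± 3.1 CPM in primary libraries (2.33 ± 0.13). COL5A3, another chain gene of type V collagen, was higher as well (57.0 ± 3.47 CPM in senescent and 12.5 ± 4.89 CPM in primary libraries, 1.76 ± 0.21), while LOXL4 (-1.54 ± 0.18) and P3H3 (-1.64 ± 0.18) were lower.

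In immortalized against senescent libraries, 14 of the 34 genes were higher and 5 lower, with a median log2 change of 0.57, and with total-count scaling these were 12 and 5. Over all tested genes 16.4% were higher and 16.1% lower on the TMM scale. With total-count scaling 1505 of the 13099 tested genes were higher and 2698 lower. LOXL1, another oxidase of the LOX family, stood at 1197 ± 111 CPM in immortalized and 335 ± 13.2 CPM in senescent libraries (2.00 ± 0.20, edgeR adjusted p = 0.000189). COL2A1, the fibrillar collagen of cartilage, stood at 16.1 ± 1.15 CPM in immortalized and 1.91 ± 0.38 CPM in senescent libraries (3.24 ± 0.19, edgeR adjusted p = 9.63e-06). P3H3 (1.52 ± 0.17) and LEPREL1 (1.499 ± 0.12) were also higher. COL5A3 went the other way, at 5.27 ± 0.52 CPM in immortalized and 57.0 ± 3.47 CPM in senescent libraries (-3.27 ± 0.22, edgeR adjusted p = 2.34e-05), as did ADAMTS3 (-1.10 ± 0.28), LOXL4 (-0.74 ± 0.18) and BMP1, the procollagen C-proteinase (-0.32 ± 0.08).

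In immortalized against primary libraries, 14 of the 34 were higher and 9 lower, with a median of 0.34, and with total-count scaling 19 and 7. Over all tested genes 24.9% were higher and 25.5% lower on the TMM scale, so the lower count on that scale is near the share of all genes. With total-count scaling 4580 of the 13099 tested genes were higher and 2098 lower. COL2A1 stood at 16.1 ± 1.15 CPM in immortalized libraries, against 2, 2 and 3 counts in the primary ones, and COL11A1, another fibrillar collagen of cartilage, at 546 ± 76.9 CPM in immortalized and 177 ± 65.3 CPM in primary libraries (1.35 ± 0.20, edgeR adjusted p = 0.000624). LEPREL1 (3.83 ± 0.14) and PCOLCE2 (2.86 ± 0.10) were higher, and SERPINF1 (-2.69 ± 0.26), LOXL4 (-2.28 ± 0.19), COL5A3 (-1.52 ± 0.21) and PCOLCE (-1.25 ± 0.25) were lower. Markers of cartilage and bone cells, COL2A1 among them, summed to 8.00 to 12.9 CPM in primary, 60.1 to 64.1 CPM in senescent and 61.8 to 72.1 CPM in immortalized libraries, and their part in these results was not tested.

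Among 17 tested collagens of other kinds, out of 33 listed and 31 in the table, 8 were higher and 4 lower in senescent than in primary libraries (median 0.27), 3 and 5 in immortalized than in senescent libraries (median -0.03), and 6 and 4 in immortalized than in primary libraries (median 0.16). With total-count scaling these counts were 10 and 1, 2 and 5, and 8 and 2. The shares of all tested genes higher and lower on the TMM scale were the 28.3% and 29.7%, 16.4% and 16.1%, and 24.9% and 25.5% given above. With total-count scaling 5955 and 1840, 1505 and 2698, and 4580 and 2098 of the 13099 tested genes were higher and lower. COL15A1 stood at 373 ± 15.1 CPM in senescent and 114 ± 30.4 CPM in primary libraries (1.26 ± 0.13), and at 166 ± 13.4 CPM in immortalized libraries (-1.01 ± 0.13 against senescent). COL4A2, a basement membrane collagen, was higher in senescent than in primary libraries (1.24 ± 0.18) and in immortalized than in primary libraries (0.56 ± 0.18). COL6A3 was lower in immortalized than in senescent libraries (-0.99 ± 0.20). COL6A1 was called lower in senescent than in primary libraries (-0.32 ± 0.10) but had a value of 0.16 with total-count scaling.

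The Holstein-like libraries differed from each other in ways their stage labels do not give, so they are described one by one and without tests. Skeletal muscle markers took 16.8% to 16.9% of the counts in the 3 primary libraries, heart markers 4.03% in senescent library 1, liver markers 13.5%, 12.8% and 12.7% in senescent libraries 2 and 3 and immortalized library 1, and kidney markers 0.936% in immortalized library 2. The 3 primary libraries were nearly as alike as repeat counts of one sample would be (chi-square per gene of 1.21 to 1.24). Immortalized library 3 was the exception in collagen. The 5 collagens took 5.58% of its counts (95% exact binomial interval 5.57% to 5.595%, counting error only), against 0.0164% to 0.101% in the other 8 Holstein-like libraries. It was picked with this level known, so what follows is a description.

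In Holstein-like immortalized library 3 the type I and type III chains stood at or above the Simmental-like levels, and the processing genes stood mostly below them. COL3A1 was at 12185 CPM, against 1456 to 6792 CPM in the 9 Simmental-like libraries, which is 7.19 times the Simmental-like immortalized mean. COL1A2 was at 18140 CPM, against 4740.0 to 12807 CPM. COL1A1, at 24417 CPM, was inside the Simmental-like range of 13675 to 28537 CPM. Of the type V chains, COL5A1 was inside the range at 607 CPM and COL5A2 was below it at 481 CPM.

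LOX stood at 93.8 CPM in Holstein-like immortalized library 3, against a lowest Simmental-like value of 323 CPM. LOXL2 stood at 64.1 CPM, against a lowest value of 563 CPM, and PLOD2 at 38.8 CPM, against 170.4 CPM. SERPINH1, the chaperone, stood at 525 CPM, against a lowest value of 1814 CPM. P4HA1 was inside the range at 73.7 CPM, just above primary library 1, and fell below the range when all 18 libraries were scaled by TMM. In all, 2 of the 10 genes lay above the Simmental-like range, 5 below and 3 within, and with TMM scaling these were 2, 6 and 2. Of all 13099 tested genes, 25.5% lay above, 30.9% below and 43.6% within.

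The ratios within this library restate these levels. Those per 100 collagen counts divide by the level for which the library was picked, so low values are partly built in. COL3A1 held 21.8% of the 5 collagens' counts, against 3.83% to 15.02% in the Simmental-like libraries. Per 100 collagen counts it had 0.168 LOX, 0.115 LOXL2, 0.0695 PLOD2, 0.940 SERPINH1 and 0.132 P4HA1 counts, each of them below every Simmental-like library. The ratio of COL1A1 to COL1A2 counts was 1.35, below the Simmental-like libraries, and that of COL5A1 to COL5A2 counts was 1.26, as high as in the Simmental-like immortalized libraries.

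Of the 36 other genes of collagen synthesis, trimming and crosslinking in the table, 9 lay above, 17 below and 10 within the Simmental-like range in this library. Over all tested genes these shares were 25.5%, 30.9% and 43.6%, so the number above shows no excess over all genes. The gene sets are not quite alike, since 34 of the 36 were among the tested genes. TLL1 and COLGALT2, both counted as above, had at most 0.145 CPM in the Simmental-like libraries. COL5A3 (150.2 CPM), the procollagen N-proteinase gene ADAMTS2 (332 CPM) and SERPINF1 (324 CPM) were above. LOXL1 (45.3 CPM), LOXL4 (0.930 CPM), P4HA2 (170.0 CPM) and P4HB (525 CPM), which encodes the partner subunit of the prolyl 4-hydroxylases, were below. Its fibroblast markers summed to 12652 CPM. Endothelial markers summed to 5506 CPM, with PECAM1 at 1460 and VWF at 2401 CPM, and blood and immune markers to 3209 CPM, with CD74 at 2231 and PTPRC at 150.4 CPM. The Simmental-like libraries had at most 13.4 and 5.77 CPM of these marker sums, and the part of these cells in the collagen levels was not tested.

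In the other 8 Holstein-like libraries 9 of the 10 genes lay below the Simmental-like range throughout, and P4HA1 did so in all but immortalized library 2 (71.7 CPM). The share of all tested genes below that range in these libraries was not counted, so this is not shown to be particular to the 10 genes. COL1A1 ranged from 16.6 to 187 CPM, COL1A2 from 28.0 to 227 CPM and COL3A1 from 103 to 552 CPM, so immortalized library 3 was 131, 80.0 and 22.1 times above the highest of them. For LOX, whose highest value in them was 4.28 CPM, the factor was 21.9. For PLOD2, SERPINH1 and P4HA1 it was 2.43, 2.37 and 1.03, and P4HA1 in immortalized library 2 was nearly level with library 3. Counts were small in the shallow primary libraries, with 4, 4 and 2 counts of LOX and 2, 1 and 2 counts of PLOD2. COL3A1 held 31.2% to 62.8% of the 5 collagens' counts in these 8 libraries, above immortalized library 3 and all Simmental-like libraries.

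**Figure D4:**
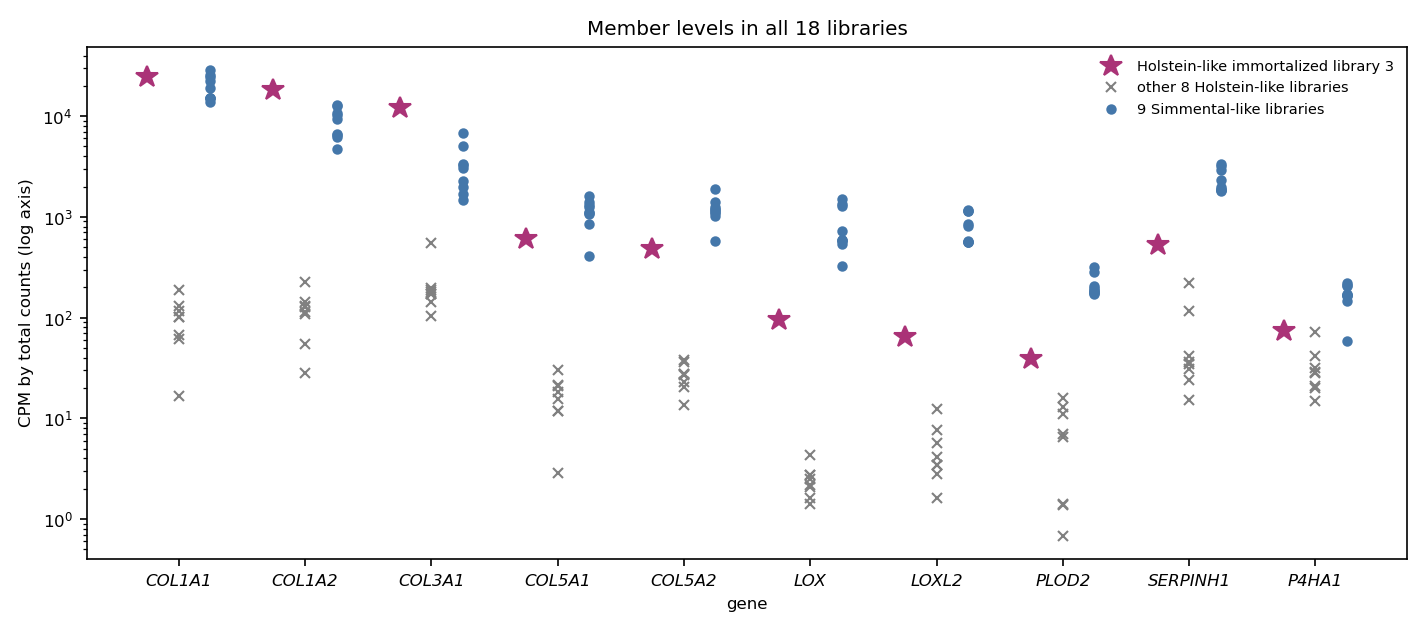
CPM by total counts (log axis) of the 10 genes in Holstein-like immortalized library 3 (stars), the other 8 Holstein-like libraries (crosses) and the 9 Simmental-like libraries (dots). For COL1A2 and COL3A1 the star lies above every dot, for LOX, LOXL2, PLOD2 and SERPINH1 it lies below every dot and above every cross, and for P4HA1 it is level with the highest cross.

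In the RefSeq annotation of cattle (ARS-UCD2.0, another build than the files', so no position is given), COL3A1 and COL5A2 are neighbours on one chromosome. COL1A2, LOXL2 and P4HA1 each overlap 1 uncharacterised gene there. The strand setting of the counting is not given in the sources used here, so reads of these overlapping genes could be shared.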

How the data were processed

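RNA was extracted with RNeasy mini kits, and libraries were made with NEBNext Ultra II kits and sequenced as single reads on a NextSeq, per the labels' protocols. Expected counts per Ensembl gene, which the authors made with salmon and merged to genes, are what the deposited table holds, by its name. The submitters' processing notes name the build UMD3.1. The annotation release is not given in the sources used here, nor is the strandedness of the counting. In each library 1.01% to 7.18% of the values were fractional, so counts were rounded to whole numbers. CPM is per total counts of a library.

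The 9 Simmental-like libraries were fitted together in R 4.3.3 with edgeR 4.0.16 (TMM, filterByExpr by stage, robust quasi-likelihood F-test, Benjamini-Hochberg adjustment over all 13099 genes tested, threshold 0.05). Log2 changes are on the TMM scale, and an SE is the absolute change divided by the root of its F statistic. Ratios within libraries were compared by two-sided exact permutation tests. The steps were tested on simulated data. Holstein-like libraries were not tested.

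The 10 genes, the gene lists and the markers were chosen with earlier results of these data known. Named genes of the lists are those past the threshold with the largest changes, up to 4 per direction (2 for other collagens), with at least 10 CPM in the higher stage and stages that do not overlap. Symbols LEPRE1 and LEPREL1 are older names of P3H1 and P3H2. The likeness to COL1A1 used log2(CPM + 1). Alternatives were RLE, upper quartile and total-count scaling, no filter, a filter of 5 CPM in 3 libraries, DESeq2 1.42.0, limma-voom 3.58.1, the 6 libraries compared, all 18 libraries, a replicate block, senescent libraries 1 and 2 summed, and leaving out each library. Those of the ratios other than COL1A1 to COL1A2 were added after the data were seen.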

Additional observations from a re-analysis of the deposited data

How the results depend on the processing

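The 600 log2 changes of the 10 genes over 20 alternative settings comprised 514 that kept direction and side of the threshold, 49 that lost a call, 19 that gained one and 18 that changed sign, and the causes were not tested. The senescent against primary comparison called 1 of the 10 genes with total-count scaling, beside 7795 of the 13099 tested genes. That scaling also turned COL5A1 to 0.39 and LOX to 0.090 in this comparison. It turned COL5A2 to -0.015 for immortalized against senescent and COL1A2 to 0.24 for immortalized against primary. COL5A1 for senescent against primary turned to 0.035 with upper quartile scaling, 0.063 with limma-voom and 0.011 with the replicate block, and ranged over -0.32 to 0.30 when single libraries were left out. COL1A2 for immortalized against primary turned to 0.021 with upper quartile scaling, 0.042 with limma-voom and 0.0088 with the replicate block, and ranged over -0.31 to 0.21 when libraries were left out. P4HA1 for senescent against primary turned to -0.0020 with no filter and -0.013 with all 18 libraries, and ranged over -0.28 to 0.22 when libraries were left out. With all 18 libraries in one fit, 0 of the 10 genes were called in any of the 3 comparisons. That fit called 8, 1 and 6 of the 34 collagen genes tested and 2025, 416 and 1800 of all genes for senescent against primary, immortalized against senescent and immortalized against primary. With the 6 libraries compared, 9 of the 10 genes, 29 of the collagen list and 8600 of all genes were called for immortalized against senescent. For immortalized against primary, 3 of the 10 genes and 4699 of all genes were called in such a fit. Leaving out single libraries gave 4 to 9 of the 10 genes and 2888 to 7793 of all genes for immortalized against senescent, with the most without primary library 1. For immortalized against primary it gave 3 to 7 of the 10 genes and 5191 to 8282 of all genes, with 7 of the 10 without primary library 1 or 2. With TMM-scaled library sizes the collagen share of immortalized minus primary libraries was -0.032 percentage points, and that of senescent minus primary libraries was -1.71. Without single libraries, the log2 ratio of COL1A1 to COL1A2 for immortalized against senescent ranged over -0.024 to 0.081. For senescent against primary, LOXL2 per 100 collagen counts ranged over -0.21 to 0.038 and SERPINH1 over -0.11 to 0.37. Same-numbered libraries of different stages deviated from their stage means with correlations of -0.63 to 0.41. With 3 libraries per stage these values cannot show whether the numbers pair the libraries. The replicate block called 6, 4 and 4 of the 10 genes in the 3 comparisons, beside 6743, 3466 and 5753 of all genes.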
